A study of Homo sapiens with 14 samples.

Results

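The genes described here are 119 long intergenic noncoding RNA genes, the members of a count table of 26485 genes whose symbol is LINC followed by digits and whose counts summed to 200 or more over 14 libraries. The table listed 876 such LINC symbols, of which 316 had no count in any library and 441 had counts below the limit. The members were chosen by their summed counts, a measure of level, so their levels are given as a description. LINC00032 (204 counts), LINC01530 (206) and LINC00115 (210) lay just inside the limit, and LINC01232 (191), LINC01273 (196) and LINC01122 (198) lay just outside it. Since 12 of the 14 libraries came from induced cultures and 2 from stem cells, the sum favours genes that are high after induction.

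The libraries were made from polyadenylated RNA of WA01 cells (also called H1, an established human embryonic stem cell line; group hESC) and of their derivatives after 5 days of neural crest induction. Every induced culture received CHIR99021, a GSK3 inhibitor that activates canonical Wnt signaling, from hour 0 to 72, at 3 µM (low Wnt) or 10 µM (high Wnt). At each dose 1 group had no further additive, 1 received 10 µM SB431542 (SB4, which inhibits type I receptors of the TGF-beta, activin and nodal ligands) and 1 received recombinant TGF-beta 1 (TGFB, 5 ng/µL as labelled), both over hours 0 to 120. The 7 groups held 2 libraries each from 1 cell line, and the labels do not say whether these were separate cultures, so p-values measure only the spread between the libraries, which may be technical.

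Long intergenic noncoding RNAs are transcripts, mostly spliced and polyadenylated like messenger RNAs, that do not encode a known protein. Many are made in few cell types, often beside a gene for a developmental transcription factor. Some act on the neighbouring gene, some act elsewhere in the cell, and for most no function is known. LINC symbols are placeholders, and a gene receives another name once a role or a reading frame is described.

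The label long intergenic noncoding RNA did not hold for every member. In the current RefSeq annotation 105 of the 119 were noncoding genes, 13 were protein-coding and LINC00032 was a transcribed pseudogene. The coding ones include LINC00493 (SMIM26), LINC00998 (SMIM30), LINC00116 (MTLN), LINC01420 (NBDY) and LINC01314 (CTXND1), which encode small proteins. By the coordinates of the count table (hg38), 10 members overlapped the body of a protein-coding gene, 4 of them on the same strand and 8 on the other. LINC00403, now SOX1-OT, is one of the overlapping members on the same strand, since its gene spans SOX1. Members had a median of 4 exon blocks and 2222 exon bases, against 9 blocks and 3393 bases in the 14480 tested protein-coding genes.

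Library totals ran from 10879287 to 19106827 counts, of which the members took 0.121% to 0.168%. Levels are CPM, counts scaled to equal library totals, and where a library had no count the upper limit, set at 3 counts, was 0.157 to 0.276 CPM. Stem cell markers (POU5F1, NANOG, TDGF1, DPPA4, L1TD1, ZFP42) summed to 2972 to 3317 CPM in hESC, 1051 to 1178 CPM in low Wnt + TGFB and 158 to 376 CPM in the other groups, with NANOG at 0 in high Wnt. The 8 neural crest markers summed to 116 to 130.0 CPM in hESC, 66.3 to 124 in the low Wnt groups and 281 to 382 in the high Wnt groups, and they did not move together. Group means of PAX3 were 0.0773 CPM in hESC, 7.54 to 17.01 in low Wnt and 169.8 to 259.9 in high Wnt groups, and those of SNAI2 were 0.81, 18.2 to 28.5 and 26.3 to 68.1. SOX9 had 5.52 CPM in hESC and 15.01 to 25.2 in induced groups. FOXD3 had 33.9 CPM in hESC and 0.125 to 0.593 in high Wnt groups, and ETS1 had 77.5 in hESC and 5.49 to 64.02 in induced groups. SOX10 had at most 6.67 CPM in any group, and TFAP2A and TFAP2B had at most 0.143 and 0.0323 in high Wnt groups, TFAP2B being at 0 in high Wnt without additive. In bulk RNA, fewer cells of a type and less RNA per cell cannot be told apart.

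The members were mostly low. Their median level was 1.79 CPM per kb of exon, against 8.02 CPM per kb for tested protein-coding genes. LINC00657 (NORAD, a cytoplasmic RNA that binds PUMILIO proteins) had the highest level with 85.1 CPM per kb, followed by LINC00493 with 49.4, LINC01578 (CHASERR, which restrains the neighbouring gene CHD2) with 49.1 and LINC01420 with 40.3. Of the next 6, LINC00998 (35.8 CPM per kb), LINC01089 (27.3), LINC00888 (17.4) and LINC00665 (14.7) were present in all groups, whereas LINC00678 (32.1) and LINC01573 (13.8) varied more between groups. In CPM, 59 members had at least 1 CPM in every group mean and 18 at least 10 CPM, and 7 had no count in at least 1 group. The group with the highest mean was hESC for 22 members, low Wnt for 6, low Wnt + SB4 for 20, low Wnt + TGFB for 12, high Wnt for 13, high Wnt + SB4 for 22 and high Wnt + TGFB for 24, and hESC was the lowest group for 73. These groups were not counted over all tested genes, and the summed counts that chose the members favour genes high after induction.

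**Figure D1:**
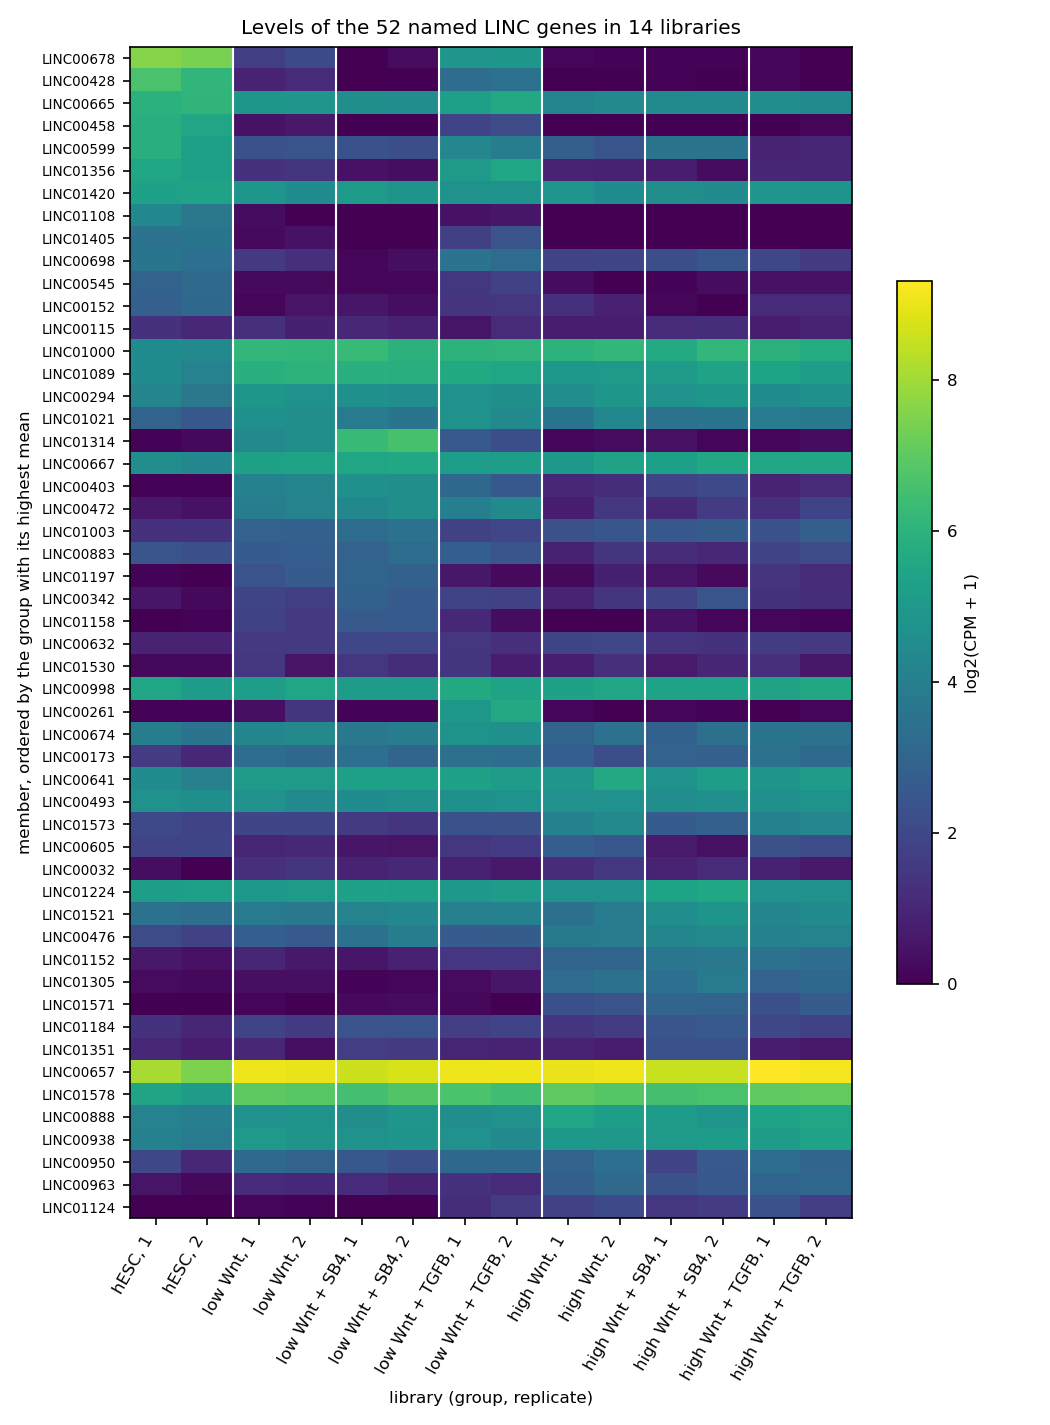
Levels of 52 named members (rows, ordered by the group with the highest mean) in the 14 libraries (columns, 2 per group) as log2(CPM + 1). LINC00678 to LINC00152 at the top were highest in hESC, LINC00261 stood out in low Wnt + TGFB, and LINC00657 was high throughout.

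Spread over groups was summarised by tau, which is 0 for a gene with equal group means of log2(CPM + 1) in the 7 groups and 1 for a gene present in 1 group. The median tau was 0.260 for members and 0.139 for all 16149 tested genes. Among genes of like level this order did not hold throughout. At 1 to 3 CPM the 47 members had a median of 0.353 and all tested genes 0.407, at 3 to 10 CPM the 39 members had 0.212 against 0.259, and at 10 CPM or more the 30 members had 0.116 against 0.0859. The 5 highest values belonged to LINC01108 (0.972), LINC00261 (0.954), LINC00458 (0.922), LINC01405 (0.887) and LINC00428 (0.881), and 4 of these 5 were highest in hESC. LINC01108, LINC00261, LINC00458 and LINC01405 reached the limit of 200 counts only through the group where each was highest. The same held for members outside these 5, among them LINC00545 and LINC00152 through hESC. It also held for LINC01158 through low Wnt + SB4 and for LINC01124 through high Wnt + TGFB. For all such members, tau and calls against that group draw on the values that chose them, and are description.

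All 119 members passed the filter on low counts and were tested with all other genes in 1 edgeR quasi-likelihood fit of the 14 libraries, with Benjamini-Hochberg adjustment over 16149 genes and a call at an adjusted p under 0.05. Against hESC, 58 members were higher and 24 lower in low Wnt (71.4% of all genes were called), and 61 were higher and 27 lower in high Wnt (72.4% of all genes, 36.3% higher and 36.1% lower). In these comparisons more members were higher than lower, while all genes were split evenly (35.8% higher and 35.6% lower in low Wnt), and the sum over mostly induced libraries leans the same way. High Wnt against low Wnt called 19 members higher and 21 lower, beside 38.5% of all genes (19.4% higher and 19.1% lower). SB4 called 5 higher and 9 lower in low Wnt (11.2% of all genes, 4.84% higher and 6.39% lower) and 9 higher and 10 lower in high Wnt (21.5%, 9.94% higher and 11.6% lower). TGFB called 16 higher and 10 lower in low Wnt (26.0%, 13.7% higher and 12.2% lower) and 3 higher and 1 lower in high Wnt (7.25%, 3.75% higher and 3.49% lower). Low Wnt + TGFB against hESC called 55 higher and 18 lower (63.1%, 31.4% higher and 31.8% lower). In none of these comparisons were members called more than 1.5 times as often as all genes. The SB4 effect differed between doses for 1 member above 0 and 4 below (6.07% of all genes, 2.71% above and 3.36% below), and the TGFB effect for 5 above and 7 below (11.8%, 5.73% above and 6.06% below). At each dose the comparisons with SB4 and with TGFB share the libraries without additive.

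**Figure D2:**
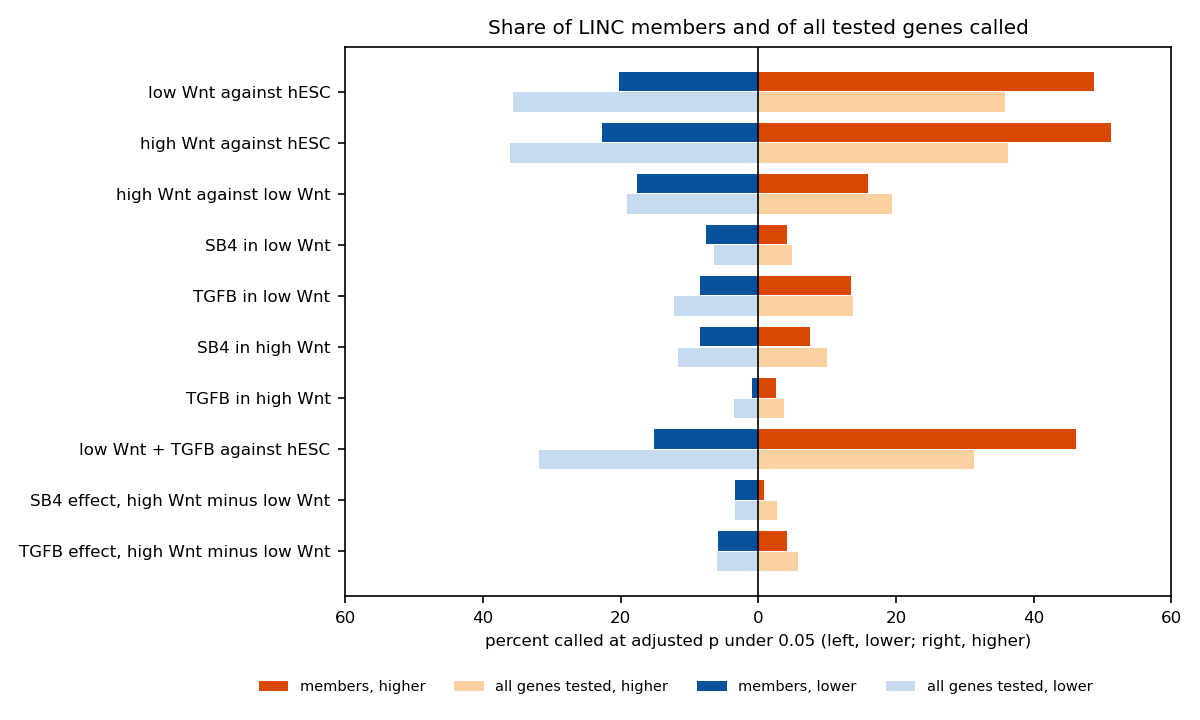
Percent of the 119 members (dark bars) and of the 16149 tested genes (pale bars) called at an adjusted p under 0.05 in each comparison, higher to the right and lower to the left. Against hESC 48.7% of members were higher in low Wnt and 51.3% in high Wnt, and the shares in the other comparisons lay nearer to those of all genes, apart from low Wnt + TGFB against hESC with 46.2% higher.

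One group of members was high in stem cells and nearly lost on induction. LINC00678, 20268 bases from the neurotrophin gene BDNF (chr11:27617626-27634627), had 195 and 174 CPM in hESC, 2.34 and 3.22 in low Wnt and 0.0807 and 0.0683 in high Wnt. It fell by 6.13 on the log2 scale in low Wnt (SE 0.196, adjusted p = 2.02e-13), and the ratio of hESC to high Wnt, where 2 counts were left, was 2499 (exact 95% interval 691 to 20642). LINC00428 (chr13:42842412-42872744) had 97.6 and 68.98 CPM in hESC, 0.901 and 1.19 in low Wnt and no count in high Wnt, at least 757-fold lower there. In both genes the hESC libraries stood far above all 12 others. LINC00458, an RNA described in human embryonic stem cells (chr13:54124324-54132871), had 56.7 and 44.2 CPM in hESC, 0.36 and 0.537 in low Wnt and no count in high Wnt, at least 457-fold lower.

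LINC01108, a further RNA described in embryonic stem cells (chr6:14280127-14285454), had 19.2 and 11.9 CPM in hESC, 0.24 and 0 in low Wnt and no count in any high Wnt group. It fell by 7.01 in low Wnt (SE 0.584, adjusted p = 2.24e-07), a call that DESeq2 did not make (adjusted p = 0.21). LINC01405 (VHRT) had 10.7 and 11.3 CPM in hESC and no count in the high Wnt groups, at least 99.1-fold lower in high Wnt. LINC00545 had 6.77 and 8.20 CPM in hESC and fell by 5.41 in low Wnt (SE 0.513, adjusted p = 8.06e-08). LINC00545 passed the limit on summed counts only through hESC, so this call is description. Other members fell only in part. LINC00152 (CYTOR, a cytoskeleton regulator RNA) fell from 6.28 and 7.81 CPM to 0.12 and 0.418 in low Wnt (log2 change -4.76, SE 0.5, adjusted p = 2.75e-07), and LINC00665 from 59.8 and 66.4 to 29.1 and 27.6 (log2 change -1.25, SE 0.129, adjusted p = 2.27e-07). LINC00152 too passed the limit only through hESC, so its call against hESC is description.

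The RefSeq promoter of LINC01108 (GRCh38.p14, chr6:14285405-14285704, minus strand, 250 bases before to 50 after the start) is shown because this member had the highest tau. Capitals mark the reverse complement of a SOX core motif (ATTGTT) that begins 247 bases before the start and a TATA box motif (TATAAA) 54 bases before it.
LINC01108: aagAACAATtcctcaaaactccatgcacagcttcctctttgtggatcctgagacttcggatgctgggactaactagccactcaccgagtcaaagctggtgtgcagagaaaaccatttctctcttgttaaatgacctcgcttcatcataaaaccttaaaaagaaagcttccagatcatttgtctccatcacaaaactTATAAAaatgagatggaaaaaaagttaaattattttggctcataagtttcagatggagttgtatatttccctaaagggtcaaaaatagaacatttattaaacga

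With TGFB in low Wnt several of the same genes stood above their level without it. LINC00678 had 28.02 and 29.2 CPM with TGFB, 3.28 higher on the log2 scale than in low Wnt alone (SE 0.195, adjusted p = 6.04e-09), and lay 2.86 below hESC (SE 0.155, adjusted p = 2.54e-10). LINC00428 had 9.14 and 10.4 CPM with TGFB (log2 change 3.13, SE 0.278, adjusted p = 9.73e-07), and LINC00458 had 2.75 and 3.46 (log2 change 2.69, SE 0.367, adjusted p = 9.64e-05). In all 3 genes the low Wnt + TGFB libraries lay between those of hESC and of low Wnt, without overlap.

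LINC01356 (chr1:112820169-112850643) had 43.6 and 36.8 CPM in hESC, 1.501 and 1.73 in low Wnt and 30.9 and 42.99 in low Wnt + TGFB. TGFB raised it by 4.43 in low Wnt (SE 0.237, adjusted p = 2.03e-09), and the difference from hESC was then -0.29 (SE 0.18, adjusted p = 0.167), with overlapping libraries. LINC00698 (chr3:63102688-63125061) had 11.2 and 9.51 CPM in hESC, 1.92 and 1.43 in low Wnt and 10.6 and 8.54 with TGFB, an increase of 2.42 (SE 0.271, adjusted p = 4.58e-06) that left -0.29 to hESC (SE 0.234, adjusted p = 0.297). These members reached the range of the stem cell libraries, and a p that misses the threshold does not show equal levels. LINC00545, LINC01405, LINC00152 and LINC00665 were also higher with TGFB in low Wnt, by 3.48, 3.49, 2.58 and 0.51. The call of LINC00665 was lost in 2 of 4 fits that left out a library (adjusted p up to 0.167), and LINC01108, with 0.372 and 0.495 CPM, was not called (adjusted p = 0.178). Stem cell markers were higher in the same libraries, as given above, and their part in these results was not tested.

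**Figure D3:**
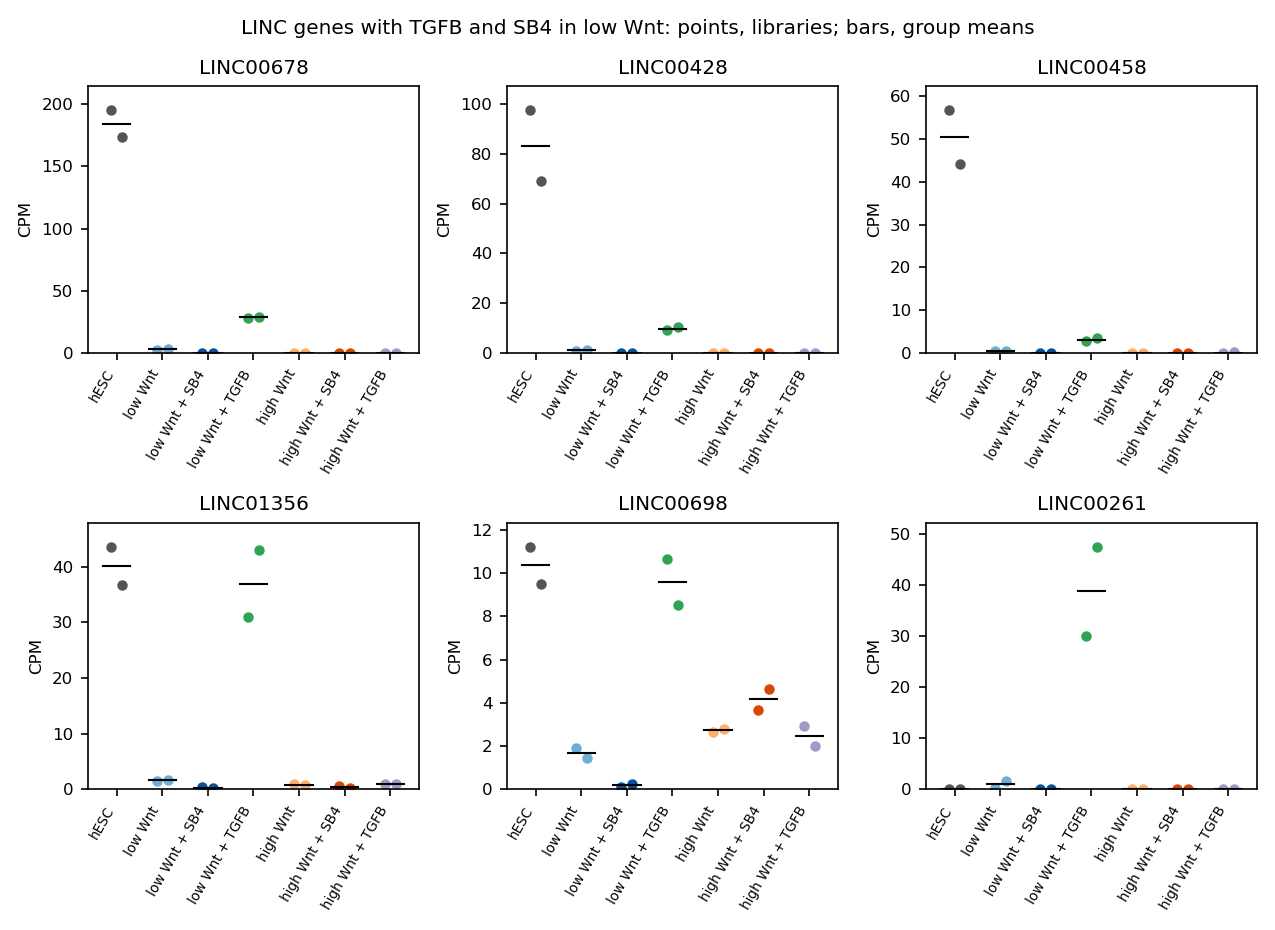
CPM of 6 members in the 7 groups (points, libraries; bars, group means; linear axes from 0). The first 5 are high in hESC, and in low Wnt + TGFB LINC01356 and LINC00698 lie in the range of hESC while LINC00678, LINC00428 and LINC00458 lie between hESC and low Wnt. LINC00261 is high in low Wnt + TGFB, at 30.0 and 47.5 CPM.

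SB4, which blocks the receptors of TGF-beta, activin and nodal, was followed by lower levels of some of these genes in low Wnt and not of others. LINC00678 had 0 and 0.209 CPM with SB4 (log2 change -4.54, SE 0.466, adjusted p = 6.90e-06), and LINC00428 no count, at least 12.4-fold lower than in low Wnt. LINC01356 fell by 2.36 (SE 0.414, adjusted p = 0.00117) and LINC00698 by 3.05 (SE 0.442, adjusted p = 0.000207). LINC00458 and LINC01405 had no count with SB4. Their calls were lost in 1 of 4 and 3 of 4 fits without a library (adjusted p up to 0.0513 and 0.17), and that of LINC01405 also without the hESC libraries (adjusted p = 0.0536). LINC00152 (0.12 and 0.418 CPM in low Wnt, 0.486 and 0.262 with SB4; log2 change 0.43, adjusted p = 0.76), LINC00545 (log2 change -0.65, adjusted p = 0.717), LINC00665 (log2 change -0.28, adjusted p = 0.195) and LINC01108 (adjusted p = 0.215) were not called. In high Wnt LINC00678, LINC00428, LINC00458 and LINC01405 were at or near 0 with either additive. LINC00698 had 2.66 and 2.80 CPM in high Wnt, 3.68 and 4.65 with SB4 and 2.94 and 2.01 with TGFB. Its SB4 effect differed between doses by 3.60 (SE 0.525, adjusted p = 0.00038) and its TGFB effect by -2.65 (SE 0.401, adjusted p = 0.000273). For LINC01356, at 1.01 and 1.01 CPM in high Wnt + TGFB, the TGFB effects differed by -4.25 (SE 0.507, adjusted p = 2.67e-05).

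LINC00261 (chr20:22560554-22578642), which lies 2362 bases from FOXA2, a transcription factor gene of endoderm and floor plate, was the member with the largest increase by TGFB in low Wnt. It had 30.03 and 47.5 CPM in low Wnt + TGFB, 0.3 and 1.73 in low Wnt and at most 0.129 in any library of the other 5 groups. LINC00261 became a member only through its 1172 counts in low Wnt + TGFB, so its rank here is description. The increase was 5.16 (SE 0.428, adjusted p = 1.53e-07), and relative to hESC, where it had 2 counts, the ratio was 536 (exact 95% interval 148 to 4433). SB4 lowered it in low Wnt to 0.0607 and 0.0523 CPM (log2 change -3.998, SE 0.942, adjusted p = 0.0103). That call rested on few counts and was lost in 3 of 4 fits without a library (adjusted p up to 0.266). The endoderm markers SOX17, FOXA2, GATA6, GATA4 and EOMES summed to 49.1 and 108 CPM in low Wnt + TGFB, against 1.80 to 2.45 in low Wnt and 0.121 to 0.157 in low Wnt + SB4, where SOX17 and EOMES were at 0. Their part in this result was not tested. Replicate 2 of low Wnt + TGFB was the higher library for LINC00261 and for FOXA2 (13.3 and 27.1 CPM).

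The promoter of LINC00261 (GRCh38.p14, chr20:22578593-22578892, minus strand) is shown as that of the member with the largest TGFB response. The capitals mark a match to the reverse complement of TATAAA that begins 74 bases before the start, and no other motif searched, the SMAD3/4 palindrome GTCTAGAC included, was in it.
LINC00261: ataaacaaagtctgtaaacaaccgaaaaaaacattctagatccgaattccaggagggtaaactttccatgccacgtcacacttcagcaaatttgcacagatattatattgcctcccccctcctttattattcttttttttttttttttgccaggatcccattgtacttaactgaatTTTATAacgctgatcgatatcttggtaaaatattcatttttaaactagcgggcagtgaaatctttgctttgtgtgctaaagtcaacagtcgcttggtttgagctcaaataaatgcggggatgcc

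Other members moved with TGFB too. LINC01124, which starts 780 bases from SP5, a Wnt-responsive transcription factor gene, rose in low Wnt from 0.12 and 0.0596 to 1.34 and 2.16 CPM (log2 change 4.10, SE 0.642, adjusted p = 0.000243), a ratio of counts of 19.9 (exact 95% interval 6.46 to 99.7). LINC00599 (MIR124-1HG, the host of a neural microRNA) rose from 4.02 and 4.29 to 18.96 and 13.9 CPM in low Wnt (log2 change 1.89, SE 0.227, adjusted p = 9.61e-06) and fell from 5.97 and 4.37 to 0.919 and 0.943 in high Wnt (log2 change -2.51, SE 0.332, adjusted p = 0.000132). It was the single member called lower with TGFB in high Wnt, and its TGFB effects differed between doses by -4.40 (SE 0.399, adjusted p = 1.32e-06). LINC00883 (DUBR), LINC00173 and LINC01521 were called higher with TGFB in high Wnt, by 1.22, 0.89 and 0.71. Their calls were lost in 3 of 4, 3 of 4 and 2 of 4 fits without a library, with adjusted p up to 0.29, 0.329 and 0.136.

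A second set rose in low Wnt and was lower in stem cells and in high Wnt. LINC00403 (SOX1-OT, chr13:111972310-112108015), whose gene spans the neural progenitor gene SOX1, had 0.0706 and 0.0773 CPM in hESC, 15.9 and 17.9 in low Wnt and 1.05 and 1.30 in high Wnt. It was lower in high Wnt than in low Wnt (log2 change -3.82, SE 0.259, adjusted p = 3.47e-09), but was still called higher in high Wnt than in hESC. LINC01314 (CTXND1, which encodes a small protein; chr15:80195479-80252261) had 0.0706 and 0.155 CPM in hESC, 19.99 and 23.2 in low Wnt and 0.0807 and 0.205 in high Wnt (log2 change -7.10, SE 0.347, adjusted p = 5.61e-11). In both genes the low Wnt libraries were separate from hESC and high Wnt. LINC01158 (PANTR1, 885 bases from the neural gene POU3F3) had 2.46 and 1.91 CPM in low Wnt and no count in high Wnt, at least 19.7-fold lower.

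LINC00472 and LINC01197 (LETR1, an RNA described in lymphatic endothelium) shared the rise in low Wnt. LINC00472 had 0.564 and 0.387 CPM in hESC, 13.9 and 17.1 in low Wnt and 0.645 and 1.85 in high Wnt (log2 change -3.58, SE 0.361, adjusted p = 5.05e-07 for high against low Wnt). LINC01197 had 0.0706 and 0 CPM in hESC, 4.14 and 5.49 in low Wnt and 0.161 and 0.752 in high Wnt (log2 change -3.31, SE 0.492, adjusted p = 4.30e-05). The endothelial and blood markers PECAM1, CDH5, TIE1, PTPRC and GATA1 summed to 1.56 to 2.45 CPM in low Wnt. Their highest sum in any library was 6.77 CPM, in hESC, where TIE1 had a mean of 5.51. Their part in these results was not tested.

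The additives split this set. TGFB lowered LINC01197 in low Wnt to 0.52 and 0.186 CPM (log2 change -3.87, SE 0.512, adjusted p = 2.62e-05), LINC01314 to 4.98 and 3.71 (log2 change -2.40, SE 0.197, adjusted p = 1.36e-07) and LINC00403 to 7.58 and 4.70 (log2 change -1.55, SE 0.208, adjusted p = 2.93e-05). LINC01158 fell by 1.89 (adjusted p = 0.0144), a call lost without low Wnt replicate 1 (adjusted p = 0.0828), without low Wnt + TGFB replicate 2 (adjusted p = 0.187) and with DESeq2 (adjusted p = 0.0523). LINC00472, with 15.1 and 21.03 CPM under TGFB, was not called (log2 change 0.14, SE 0.27, adjusted p = 0.751). SB4 raised LINC01314 to 78.6 and 94.99 CPM (log2 change 1.999, SE 0.166, adjusted p = 6.17e-07), the largest called rise by SB4 in low Wnt among members. LINC00403 with SB4 had 24.4 and 23.3 CPM (log2 change 0.49, SE 0.191, adjusted p = 0.118) and LINC01158 5.04 and 5.29 (log2 change 1.23, SE 0.414, adjusted p = 0.071), and neither was called. In high Wnt SB4 raised LINC00403 from 1.05 and 1.30 to 2.77 and 3.10 CPM (log2 change 1.25, SE 0.294, adjusted p = 0.00604), a call lost in 1 of 4 fits without a library (adjusted p = 0.0555). The neural progenitor markers were SOX1, PAX6, SOX2, OLIG3 and DBX1. They summed to 694 to 791 CPM in low Wnt, 898 to 987 with SB4 and 457 to 469.5 with TGFB. In hESC the sum was 351.6 to 360.9 CPM, in high Wnt 297.5 to 345.8 and in high Wnt + SB4 516.05 to 577.2. SOX2 was the largest part, with means of 488.1, 511.5 and 399.2 CPM in low Wnt, with SB4 and with TGFB, and 353.9 in hESC. In these low Wnt groups, in that order, SOX1 had 174.96, 234.96 and 42.05 CPM, PAX6 51.59, 135.5 and 16.18, and DBX1 13.47, 48.35 and 1.80. OLIG3 was lower with both additives, at 14.51, 12.09 and 4.21 CPM. The part of these markers in these results was not tested. For LINC01197 the TGFB effects differed between doses by 5.32 (SE 0.773, adjusted p = 0.000193).

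The promoter of LINC00403 (GRCh38.p14, chr13:111972060-111972359, plus strand) is printed for this set. Capitals mark matches to the reverse complement of TATAAA that begin 235 and 59 bases before the start, and no SOX core was found.
LINC00403: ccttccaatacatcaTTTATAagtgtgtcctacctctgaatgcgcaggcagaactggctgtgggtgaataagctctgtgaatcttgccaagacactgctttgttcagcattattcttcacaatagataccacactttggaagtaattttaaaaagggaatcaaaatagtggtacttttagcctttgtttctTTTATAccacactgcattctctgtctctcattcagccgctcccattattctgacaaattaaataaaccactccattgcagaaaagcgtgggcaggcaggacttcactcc

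A further set was high in high Wnt. LINC01305 (chr2:174326027-174330642), 4451 bases from the transcription factor gene SP9, had 8.63 and 10.3 CPM in high Wnt, 0.3 and 0.298 in low Wnt and 0.212 and 0.155 in hESC (log2 change 4.96, SE 0.344, adjusted p = 4.49e-09 for high against low Wnt). LINC01571 (chr16:51762519-51772646) had no count in hESC, 2 counts in low Wnt and 3.79 and 4.17 CPM in high Wnt, a ratio to low Wnt of 66.8 (exact 95% interval 18.04 to 558). LINC01124 (chr2:170712439-170714567) had 2.58 and 3.14 CPM in high Wnt, at least 26.1-fold above hESC, and its ratio to low Wnt was 32.1 (exact 95% interval 10.6 to 159). The high Wnt libraries of these genes did not overlap those of hESC or low Wnt.

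LINC01152, 79723 bases from the crest and cartilage gene SOX9, rose from 1.02 and 0.537 CPM in low Wnt to 6.70 and 7.04 in high Wnt (log2 change 3.14, SE 0.296, adjusted p = 2.06e-07), whereas SOX9 had 17.6 and 21.8 CPM on average. LINC00963 rose from 1.14 and 1.07 to 6.13 and 8.27 CPM (log2 change 2.71, SE 0.303, adjusted p = 1.73e-06). LINC01573 (NALT1, named for its place beside NOTCH1) rose from 2.82 and 2.80 to 15.97 and 19.6 CPM (log2 change 2.67, SE 0.199, adjusted p = 1.17e-08). LINC00605 went from 2.75 and 2.86 CPM in hESC to 0.961 and 1.07 in low Wnt and 5.89 and 4.78 in high Wnt (log2 change 2.39, SE 0.307, adjusted p = 8.42e-06). The axial progenitor and mesoderm markers in the table, CDX1, CDX2, MSGN1, TBX6 and MEOX1, summed to 374 to 475 CPM in the high Wnt groups and at most 6.84 CPM in the others, and their part in these results was not tested.

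Promoters of LINC01124 (GRCh38.p14, chr2:170714518-170714817, minus strand) and LINC01305 (chr2:174325777-174326076, plus strand) are shown as those of high Wnt members beside a transcription factor gene. Neither held any motif searched, the TCF/LEF motif CTTTGAT included, so both are in lower case, and they differ in G + C content (74.0% and 44.0%).
LINC01124: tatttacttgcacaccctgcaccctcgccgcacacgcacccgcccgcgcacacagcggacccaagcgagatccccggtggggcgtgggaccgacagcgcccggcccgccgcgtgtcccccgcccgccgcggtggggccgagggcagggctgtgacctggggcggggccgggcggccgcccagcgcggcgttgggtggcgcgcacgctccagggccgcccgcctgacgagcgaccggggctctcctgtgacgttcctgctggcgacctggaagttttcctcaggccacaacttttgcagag
LINC01305: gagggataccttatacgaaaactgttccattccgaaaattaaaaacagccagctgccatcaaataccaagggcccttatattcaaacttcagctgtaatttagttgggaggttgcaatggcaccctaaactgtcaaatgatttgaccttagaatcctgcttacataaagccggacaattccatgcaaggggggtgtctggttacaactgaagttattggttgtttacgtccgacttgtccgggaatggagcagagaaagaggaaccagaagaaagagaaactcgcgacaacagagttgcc

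In the high Wnt set SB4 calls went both ways. LINC01573 fell to 5.55 and 6.31 CPM in high Wnt + SB4 (log2 change -1.64, SE 0.184, adjusted p = 1.11e-05) and LINC00605 to 0.581 and 0.344 (log2 change -3.58, SE 0.346, adjusted p = 2.10e-06). LINC00152, although highest in hESC, fell from 1.45 and 0.82 CPM in high Wnt to 2 counts in all, a ratio of 18.3 (exact 95% interval 4.64 to 158). LINC01305 (9.55 and 12.8 CPM with SB4), LINC01571 (7.29 and 6.89) and LINC01124 (1.74 and 2.07) were not called. LINC01152 was higher with SB4, at 11.6 and 12.3 CPM (log2 change 0.74, SE 0.227, adjusted p = 0.0276), and LINC00963 lower, at 4.001 and 4.88 CPM (log2 change -0.76, SE 0.261, adjusted p = 0.0489). Both calls were lost in 4 of 4 and 4 of 4 fits without a library (adjusted p up to 0.132 and 0.289) and with DESeq2 (adjusted p = 0.0785 and 0.124), and that of LINC00963 also with library totals, without the filter and with only the groups compared (adjusted p = 0.0691, 0.051 and 0.0539). In low Wnt the SB4 changes of LINC01573 and LINC00605 were -0.60 and -1.17, not called. The effects differed between doses for LINC00605 (difference -2.41, SE 0.559, adjusted p = 0.0141) and for LINC01573 (difference -1.04, SE 0.297, adjusted p = 0.0481). Fits without a library lost these calls in 3 of 8 and 8 of 8 cases (adjusted p up to 0.0795 and 0.187).

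**Figure D4:**
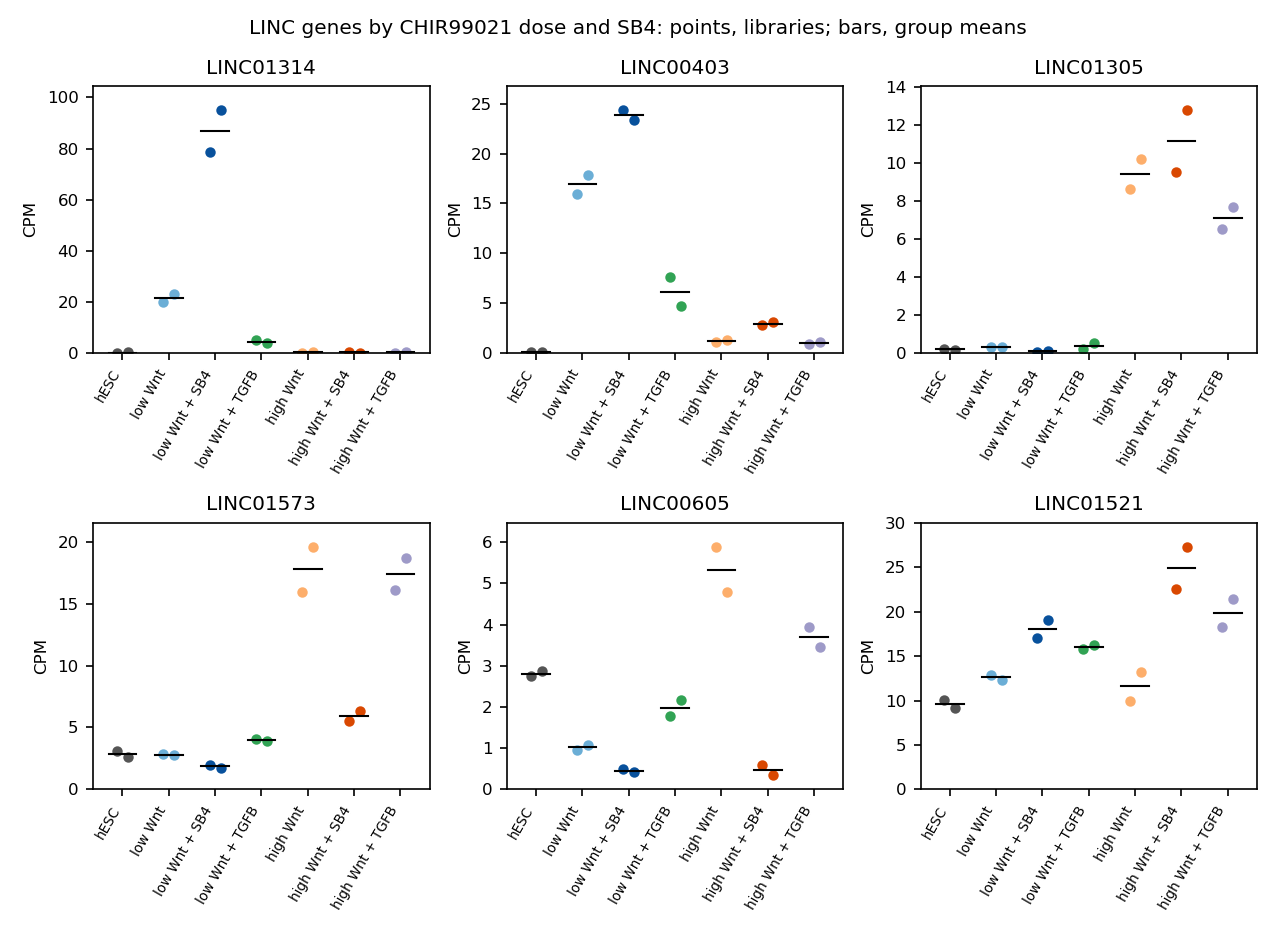
CPM of 6 members in the 7 groups (points, libraries; bars, group means; linear axes from 0). LINC01314 and LINC00403 are high in low Wnt and low Wnt + SB4, LINC01305 in all 3 high Wnt groups, LINC01573 and LINC00605 in high Wnt and high Wnt + TGFB more than in high Wnt + SB4, and LINC01521 is highest in high Wnt + SB4 at 22.5 and 27.3 CPM.

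A few members rose with SB4 at both doses. LINC01351 (BRINP3-DT), which starts 631 bases from BRINP3, rose from 0.887 and 0.683 to 4.07 and 4.07 CPM in high Wnt (log2 change 2.31, SE 0.422, adjusted p = 0.000946) and from 1.08 and 0.298 to 2.19 and 1.99 in low Wnt (log2 change 1.58, SE 0.432, adjusted p = 0.0254). LINC00342 rose by 1.41 in high Wnt (SE 0.358, adjusted p = 0.00991) and by 1.17 in low Wnt (SE 0.311, adjusted p = 0.0211). LINC01521 rose from 9.92 and 13.3 to 22.5 and 27.3 CPM in high Wnt (log2 change 1.04, SE 0.157, adjusted p = 0.000172) and by 0.51 in low Wnt (SE 0.154, adjusted p = 0.0427). For none of the 3 was the difference between doses called (adjusted p = 0.605, 0.868 and 0.195). Leaving out a library lost the low Wnt calls in 3 of 4, 4 of 4 and 4 of 4 fits (adjusted p up to 0.258, 0.158 and 0.264) and the high Wnt call of LINC00342 in 2 of 4 (up to 0.116). DESeq2 did not make the low Wnt calls (adjusted p = 0.0734, 0.0531 and 0.0709).

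LINC01184 (SLC12A2-DT) rose with SB4 in high Wnt from 1.61 and 2.12 to 4.45 and 5.05 CPM (log2 change 1.28, SE 0.282, adjusted p = 0.00387), and LINC01224 by 0.72 (SE 0.113, adjusted p = 0.000263). LINC00476 (ERCC6L2-AS1) rose with SB4 in low Wnt, from 5.88 and 5.07 to 9.96 and 13.8 CPM (log2 change 1.11, SE 0.19, adjusted p = 0.000939). It overlaps ERCC6L2 on the opposite strand, and per the file header the counting used strand.

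Abundant members were called too, against hESC and with SB4. LINC00657 (NORAD) had 267 and 174 CPM in hESC, 541 and 504 in low Wnt (log2 change 1.16, SE 0.131, adjusted p = 6.65e-07) and 522 and 534 in high Wnt (log2 change 1.19, SE 0.132, adjusted p = 4.47e-07). With SB4 in high Wnt it fell to 367 and 365 CPM (log2 change -0.59, SE 0.13, adjusted p = 0.00398), and with SB4 in low Wnt it had 386 and 423 (log2 change -0.38, SE 0.129, adjusted p = 0.073). LINC01578 (CHASERR) rose from 42.3 and 33.3 CPM in hESC to 125 and 117 in low Wnt and 129 and 114 in high Wnt, by 1.59 and 1.61. The same step raised LINC01021 (PURPL, a p53-induced RNA). It went from 6.84 and 4.72 CPM to 24.5 and 23.4 in low Wnt (log2 change 1.96, SE 0.224, adjusted p = 7.40e-07) and fell with SB4 there to 13.2 and 11.2 (log2 change -0.98, SE 0.203, adjusted p = 0.00437). That last call was lost in 1 of 4 fits without a library (adjusted p = 0.0727).

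The genes now known to encode small proteins differed among themselves. LINC00493 (SMIM26) had group means of 22.7 to 25.3 CPM and LINC00998 (SMIM30) of 33.7 to 45.03, and neither was called in any comparison. LINC01420 (NBDY) was 39.4 CPM in hESC and 25.2 in low Wnt on average (log2 change -0.73, SE 0.148, adjusted p = 0.000325). LINC00116 (MTLN) fell from 11.5 and 14.6 CPM in hESC to 3.42 and 2.80 in low Wnt (log2 change -2.16, SE 0.323, adjusted p = 1.54e-05) and 3.95 and 5.06 in high Wnt (log2 change -1.61, SE 0.316, adjusted p = 0.000231). LINC01314 was among the most variable members, as described above.

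The level of each member was set beside that of its nearest protein-coding gene. Over the 14 libraries the median Pearson r of log2 CPM between a member and that gene was 0.441 (96 members with a tested neighbour), against 0.221 for 13559 tested genes and their own neighbours. The median was 0.658 for 34 members under 5000 bases away, 0.468 for 32 at 5000 to 50000 bases and 0.0533 for 30 farther away, while the medians for all genes were 0.239, 0.216 and 0.167. These values describe libraries that share 7 groups, 1 cell line and the depth of each library.

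The pairs below are mostly of high r and do not show the range. Of the 96 members, 19 had r of at least 0.8 (19.8%, against 11.5% of all tested genes). At 50000 bases or more, where LINC01356 lies, 2 of 30 members did (6.67%, against 9.77% of all tested genes). LINC00403 and SOX1 had r = 0.957, with SOX1 at 174 and 176 CPM in low Wnt, 39.99 and 44.1 with TGFB and 0.645 and 1.64 in high Wnt. The gene of LINC00403 spans SOX1 on the same strand, so these genes do not lie side by side. LINC01158 and POU3F3 had r = 0.937, LINC01305 and SP9 r = 0.93, and LINC01124 and SP5 r = 0.927, with SP5 at 30.8 and 57.5 CPM in low Wnt + TGFB against 1.32 and 1.97 in low Wnt. LINC00261 and FOXA2 had r = 0.937, and outside low Wnt + TGFB neither gene passed 1.73 CPM in any library. LINC01356 and SLC16A1, a lactate transporter gene 61205 bases away, had r = 0.929, with SLC16A1 at 783 and 651 CPM in hESC and 346 and 400.1 in low Wnt. The opposite sign was seen for LINC00665 and the zinc finger gene ZFP14 (r = -0.703), where ZFP14 had 15.7 and 9.44 CPM in hESC and 38.4 and 39.4 in low Wnt.

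**Figure D5:**
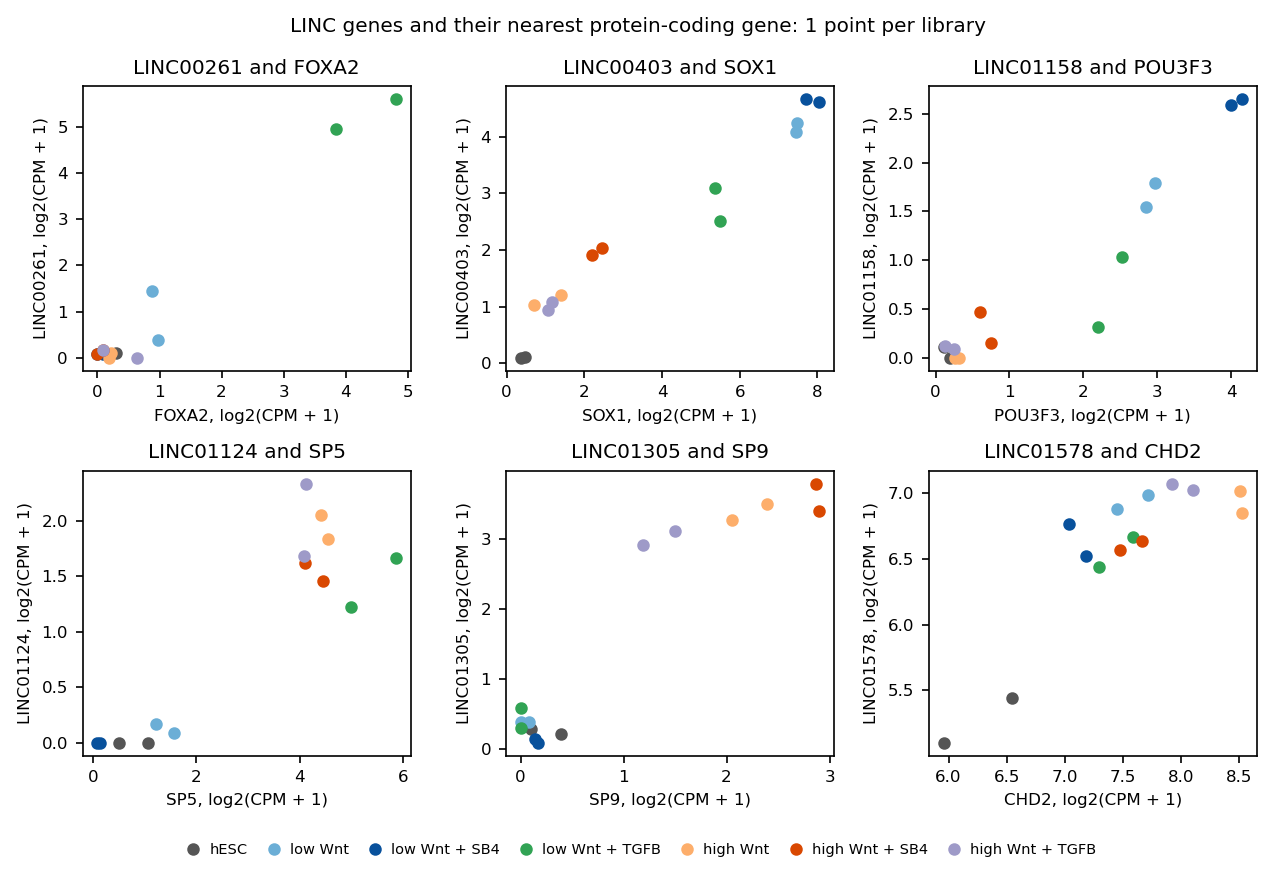
Level of 6 members (vertical) against their nearest protein-coding gene (horizontal), both as log2(CPM + 1), with 1 point per library coloured by group. The low Wnt and low Wnt + SB4 libraries lie at the upper right for LINC00403 and LINC01158, the high Wnt groups for LINC01305, low Wnt + TGFB for LINC00261, and hESC at the lower left for LINC01578.

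LINC00526 and LINC00667 start 71 bases apart on opposite strands and had r = 0.912 over the 14 libraries. LINC00526 went from 3.25 and 2.86 CPM in hESC to 9.97 and 9.72 in low Wnt (log2 change 1.60, SE 0.192, adjusted p = 1.34e-06), and LINC00667 from 22.8 and 18.7 to 39.4 and 41.5 (log2 change 0.87, SE 0.144, adjusted p = 4.29e-05). LINC00115 and LINC01128 also start on opposite strands, 69 bases apart, and had r = 0.270.

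RefSeq promoters were matched for 91 members, and for 82 of them the start lay within 100 bases of the start in the count table. Both strands of 300 bases were searched for 5 motifs, none of which contains another. The octamer ATGCAAAT, bound by POU factors, was in 1 of the 82 (1.22%, against 1.77% of 34943 RefSeq promoters), the TCF/LEF motif CTTTGAT in 2 (2.44% against 2.63%), and GTCTAGAC in 0 (0.203% of all). TATAAA was in 6 (7.32% against 11.6%) and ATTGTT in 2 (2.44% against 10.1%). A match here is a run of letters, not a bound site.

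Some members share stretches of sequence with other genes, and since multiply mapped reads were not counted, counts from those stretches are uncertain. In GENCODE transcripts, LINC00893 and LINC00894 shared 1459 words of 25 bases, LINC00623 and LINC00869 shared 675, LINC00265 and LINC01001 shared 496, and LINC00869 and LINC01138 shared 416. Among the stem cell members, LINC00458 shared 86 such words (3.49% of its own), LINC00678 shared 59 (5.08%) and LINC01356 shared 41 (2.17%) with ESRG, a stem cell RNA that is not a LINC gene. ESRG had 1466 CPM in hESC, 83.6 in low Wnt, 439 in low Wnt + TGFB and 6.32 in low Wnt + SB4 on average.

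Of 66 long noncoding RNA genes with names of their own, listed for comparison, 59 were in the count table by symbol and 46 were tested. The list includes NORAD, CYTOR and PANTR1, which are counted here as members under the symbols LINC00657, LINC00152 and LINC01158. In low Wnt against hESC 21 were higher and 15 lower (71.4% of all genes were called), in high Wnt 19 were higher and 16 lower (72.4%), and in low Wnt + TGFB 23 were higher and 13 lower (63.1%). In high Wnt against low Wnt 7 were higher and 12 lower (38.5%). With TGFB 6 were higher and 7 lower in low Wnt (26.0%) and 5 were higher and 2 lower in high Wnt (7.25%), and with SB4 3 were higher and 5 lower in low Wnt (11.2%) and 4 were higher and 8 lower in high Wnt (21.5%). The difference between doses was above 0 for 1 and below for 1 with SB4 (6.07%), and above 0 for 8 and below for 2 with TGFB (11.8%).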

How the data were processed

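The authors deposited raw counts for 14 libraries in 1 table. The submitters' processing notes name bcl2fastq, HISAT2 2.2.0, SAMtools 1.10, featureCounts 2.0.0 and the build hg38. Per the file headers, read pairs were counted over exons with reverse strandedness, and neither multiply mapped reads nor reads in several genes were counted. Whether reads were trimmed or deduplicated is not stated.

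Members and lists were chosen with earlier results of these data known. Genes were filtered with filterByExpr, scaled by TMM and tested by quasi-likelihood F-tests (edgeR 4.0.16, R 4.3.3) in 1 fit with 1 mean per group, 7 residual degrees of freedom and a common biological coefficient of variation of 0.101. Fold changes are log2 values from this fit, and CPM are given for replicates 1 and 2 in that order. The SE is the size of the log2 change divided by the square root of its F statistic. It is unreliable for changes near 0 and for groups without counts. A fold against a group without counts is a lower bound against 3 counts over the group, and with 1 to 3 counts a ratio has an exact 95% interval; both cover counting error only. No 2 replicates agreed within sampling noise (chi-square 5.53 to 15.0 per degree of freedom). The nearest protein-coding gene was taken by distance between gene bodies. The fit was tested on simulated data. Gene types, promoters and the present names of the 119 members (79 matched by symbol, 40 by synonym) come from RefSeq (promoters of GRCh38.p14), transcripts from GENCODE 29.

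Named in each comparison were the 5 highest and 5 lowest log2 changes of called members that reached 1 CPM on average in 1 of the groups and whose groups did not overlap (no such condition for differences of effects). Also named were the 10 members highest per kb, the 3 highest among the members that peak in each group, 3 genes on each side of the limit, and a panel of 13 LINC genes with a described role, of which 7 are members. LINC00526, LINC01128, LINC01503, LINC00116 and the members of the pairs with most shared words (LINC00265, LINC00623, LINC00869, LINC00893, LINC00894, LINC01001, LINC01138) lie outside this rule and were chosen after their values were seen. The alternatives were RLE scaling, scaling by library totals, omitting the filter, fitting the compared groups by themselves, omitting hESC, the replicate number as a block, DESeq2 1.42.0, leaving out each library in turn, a prior count of 0.5, members of at least 1 CPM and a pseudocount of 0.1.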

Additional observations from a re-analysis of the deposited data

Results flagged for a closer look

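The 17 results below are differences of an additive's effect between high Wnt and low Wnt, tested in the edgeR fit as the change in high Wnt minus the change in low Wnt on the log2 scale, with an adjusted p under 0.05. For SB4 the difference was 3.60 (SE 0.525, adjusted p = 0.00038; lost in 0 of 8 fits without a library) for LINC00698, -4.51 (SE 1.09, adjusted p = 0.0189; lost in 4 of 8 fits without a library) for LINC00152, -2.41 (SE 0.559, adjusted p = 0.0141; lost in 3 of 8 fits without a library) for LINC00605, -1.504 (SE 0.398, adjusted p = 0.0322; lost in 8 of 8 fits without a library) for LINC00632 and -1.04 (SE 0.297, adjusted p = 0.0481; lost in 8 of 8 fits without a library) for LINC01573.

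For TGFB the differences above 0 were 5.32 (SE 0.773, adjusted p = 0.000193; lost in 0 of 8 fits without a library) for LINC01197, 1.504 (SE 0.336, adjusted p = 0.00645; lost in 1 of 8 fits without a library) for LINC01003, 1.44 (SE 0.436, adjusted p = 0.0406; lost in 5 of 8 fits without a library) for LINC00883, 0.73 (SE 0.181, adjusted p = 0.0129; lost in 4 of 8 fits without a library) for LINC01089 and 0.68 (SE 0.184, adjusted p = 0.0217; lost in 5 of 8 fits without a library) for LINC00938. The differences below 0 were -4.40 (SE 0.399, adjusted p = 1.32e-06; lost in 0 of 8 fits without a library) for LINC00599, -4.25 (SE 0.507, adjusted p = 2.67e-05; lost in 0 of 8 fits without a library) for LINC01356, -4.06 (SE 0.77, adjusted p = 0.0027; lost in 0 of 8 fits without a library) for LINC01124 and -2.65 (SE 0.401, adjusted p = 0.000273; lost in 0 of 8 fits without a library) for LINC00698. Below 0 as well were -2.56 (SE 0.753, adjusted p = 0.0354; lost in 6 of 8 fits without a library) for LINC00152, -2.14 (SE 0.519, adjusted p = 0.0116; lost in 2 of 8 fits without a library) for LINC01503 and -1.46 (SE 0.428, adjusted p = 0.0338; lost in 6 of 8 fits without a library) for LINC00605. LINC00599 moved in opposite directions at the 2 doses. Other settings also ended calls. With DESeq2 the adjusted p was 0.0702 for LINC00883 and 0.117 for LINC00605 (TGFB), and 0.148 for LINC00632 and 0.106 for LINC01573 (SB4). With only the groups compared it was 0.0619 for LINC00883 (TGFB), and 0.0558 for LINC00152 and 0.0605 for LINC01573 (SB4). The SB4 difference of LINC01573 was also lost with library totals alone (adjusted p = 0.0669) and without the filter on low counts (adjusted p = 0.0645).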

How the results depend on the processing

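Leaving out 1 library at a time gave 47 to 53 members higher and 21 to 24 lower in low Wnt against hESC, 51 to 60 and 21 to 24 in high Wnt against hESC, 14 to 19 and 17 to 19 in high against low Wnt, and 44 to 48 and 13 to 18 in low Wnt + TGFB against hESC. The ranges were 2 to 3 higher and 5 to 9 lower for SB4 in low Wnt, 14 to 16 and 5 to 9 for TGFB in low Wnt, 5 to 8 and 6 to 7 for SB4 in high Wnt, and 1 to 3 and 1 for TGFB in high Wnt. Differences of the SB4 effect were called for 1 to 2 members above 0 and 0 to 2 below, and of the TGFB effect for 2 to 7 and 5 to 7. In these fits 1 group holds 1 library, which is assumed to vary like the other groups. DESeq2 called 2 members higher with SB4 in low Wnt (5 with edgeR) and 2 below 0 for the SB4 difference (4 with edgeR). With only the groups compared, 6 members were lower with SB4 in high Wnt (10 in the fit of all groups). Without a filter, 5 were higher with TGFB in high Wnt (3 with it), and 4 and 8 were above 0 for the SB4 and TGFB differences (1 and 5 with it). The count above 0 for the SB4 difference was 2 with the replicate block, with only the groups compared, without the hESC libraries and with DESeq2. The median tau of members was 0.153 with a pseudocount of 0.1, beside 0.0891 for all tested genes. The cause of these shifts was not tested.

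The labels number the replicates, and same-numbered libraries deviated together (correlation over 0.1) in 5 of 21 pairs of groups (range -0.116 to 0.206). With no reference for these correlations, the check cannot tell whether same-numbered libraries belong together. The replicate block lost 0 of 224 named fold changes past the threshold. DESeq2 lost 23, RLE scaling 1, library totals 6, no filter 8, only the groups compared 16 of 211, no hESC libraries 1 of 101, and leaving out a library 176 of 964, with 0 reversed in any of them. Library totals alone moved the median of all genes by 0.17 (log2) for low Wnt + TGFB against hESC. In low Wnt against hESC the SE of a member's log2 change ran from 0.112 (LINC01224, 35.1 and 37.1 CPM in hESC) to 2.02 (LINC01571, 0 and 0 CPM).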
